A study of Mus musculus with 4 samples.

Results

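Endoneurial mesenchymal cells are the fibroblast-like cells that lie between the axons and Schwann cells inside a nerve fascicle. They were described here in the neonatal mouse sciatic nerve, in 2 Drop-seq libraries in which transcripts were counted as unique molecular identifiers (UMIs). A cell was selected when it held at least 2 UMIs summed over Osr2, Wif1, Etv1, Sox9, Matn4 and Meox1, at least 3 UMIs summed over Col1a1, Col1a2, Dcn, Lum and Pdgfra, and 0 UMIs of Sox10, Pecam1 and Ptprc. This rule selected 414 of 8042 filtered neonatal barcodes, out of 12268 filtered barcodes in the 4 libraries of the series. They were 159 of 2306 (6.90%, exact binomial 95% interval 5.89 to 8.01%) in the library sorted by FACS and 255 of 5736 (4.45%, 3.93 to 5.01%) in the library cleared with myelin removal beads. These intervals, like all others given here, cover counting error only, and wherever a pair of values is given the FACS library comes first and the beads library after it.

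All mice were wildtype CD1. The FACS library came from pups at postnatal day 3 to 4 and was sorted for cells with high Hoechst staining and without propidium iodide, and the beads library came from pups at postnatal day 2 to 3. The same rule was applied to 1 library of uninjured adult nerve, where it selected 267 cells, and to 1 library of the distal adult nerve at 3 days post-injury (DPI) by resection, where it selected 311; both adult libraries were cleared with beads. Each group is 1 library, cells of a library are not replicates, and age and library cannot be told apart between neonatal and adult nerve. For the FACS library preparation cannot be told apart from them either, while the beads library was cleared like both adult libraries. No test was therefore made, and sizes are read against the agreement of the 2 neonatal preparations.

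The endoneurium carries axons and Schwann cells in a loose collagen matrix, the perineurium wraps each fascicle in layers of barrier cells, and the epineurium is the outer connective tissue. Sox9 is a transcription factor best known for driving cartilage matrix genes, Osr2 and Meox1 are transcription factors of mesenchyme, Etv1 is an ETS factor often induced by FGF signaling, Wif1 is a secreted inhibitor of Wnt ligands, and Matn4 encodes a matrilin of the extracellular matrix. Around birth the nerve still grows, and its Schwann cells begin to myelinate.

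The 4 libraries held 4513814 to 8123103 UMIs in 2000 to 6200 barcodes, and 91.2 to 97.3% of the barcodes passed the filters. The selected neonatal cells were deep for their libraries, with a median of 3440 UMIs in the FACS and 1721 UMIs in the beads library, against 1606 and 1009.5 over all filtered barcodes; a rule that needs several UMIs favors deep cells. The neonatal libraries shared 3 barcodes with each other and at most 3 with either adult library, and none of these was a selected cell in both.

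The genes of the rule were present unevenly, and since they chose the cells their levels are a description. Sox9 was found in 87 (54.7%, 46.6 to 62.6%) of the 159 FACS cells and 103 (40.4%, 34.3 to 46.7%) of the 255 beads cells. Osr2 was found in 50 (31.4%, 24.3 to 39.3%) and 87 (34.1%, 28.3 to 40.3%). Etv1 was found in 50 (31.4%, 24.3 to 39.3%) and 69 (27.1%, 21.7 to 33%), and Meox1 in 39 (24.5%, 18.1 to 32%) and 53 (20.8%, 16 to 26.3%). Meox1 also had a UMI in 21.9 and 14.4% of Pecam1-positive endothelial cells of these libraries, so it is not particular to mesenchymal cells. It was the only gate gene in 4 FACS and 4 beads cells. Wif1 was nearly missing, in 8 (5.03%, 2.20 to 9.67%) FACS cells and 1 (0.392%, 0.00993 to 2.17%) beads cell. It was also rare in the cells selected from the uninjured adult nerve, 5 (1.87%, 0.611 to 4.32%), whereas at 3 DPI it was found in 212 (68.2%, 62.7 to 73.3%) of 311. The neonatal cells were selected almost without Wif1, while most cells selected after injury held it.

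**Figure D1:**
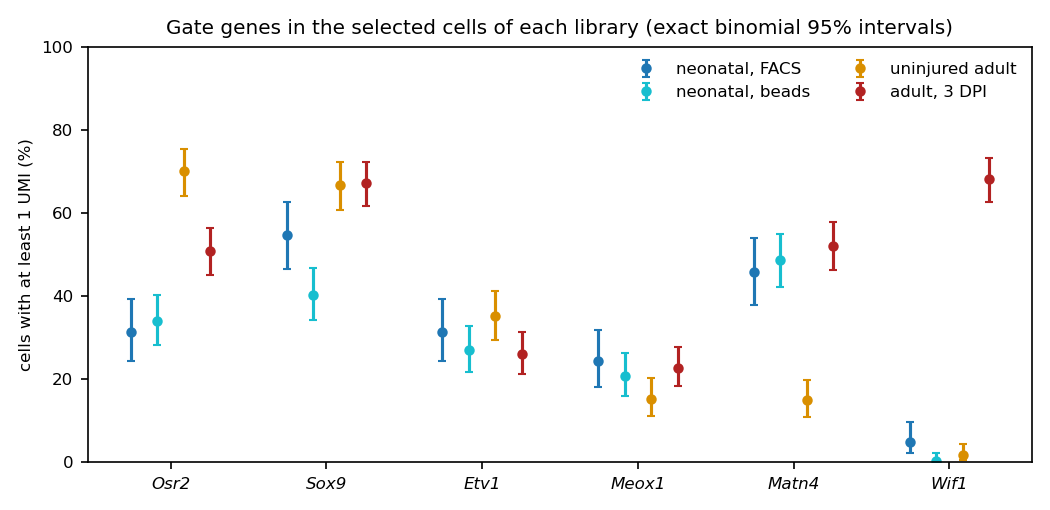
Share of selected cells with at least 1 UMI of each gate gene (y axis, %) in the 4 libraries, with exact binomial 95% intervals as bars. Wif1 lies at 5.03% and 0.392% in the neonatal libraries and at 68.2% at 3 DPI, and Osr2 is highest in the uninjured adult nerve at 70.037%.

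Sox9, Osr2 and Etv1 overlapped within cells. In the FACS library 38 of the 50 cells with Osr2 also held Sox9, and 38 of the 50 cells with Etv1 held Sox9. In the beads library the overlap was 47 of 87 cells with Osr2 and 40 of 69 cells with Etv1. Matn4 was different, since 18 of 73 FACS cells and 18 of 124 beads cells with Matn4 held Sox9. Depth differed between the libraries, and these overlaps are a description. Of the selected cells, 75 in the FACS and 127 in the beads library carried a single gate gene, and for 46 and 84 of these it was Matn4.

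The label was then checked cell by cell. The cells whose gate UMIs came from Matn4 alone held few mesenchymal transcripts and more Schwann cell transcripts than the others. The median share of a cell's UMIs in the 5 mesenchymal genes was 0.750% (FACS) and 0.722% (beads) in these 130 cells, close to the 0.656% and 0.582% in Sox10-positive cells of the same libraries, and 6.88% and 5.48% in the other 284 selected cells. A list of 10 Schwann cell markers, among them Mbp of myelin, Erbb3, S100b and Cdh19, took a median of 0.463% and 0.396% of the UMIs of the cells with Matn4 alone and 0.0509% and 0.0293% in the others, beside 0.529% and 0.405% in Sox10-positive cells. Matn4 itself had a UMI in 32.9% and 22.8% of Sox10-positive cells, where Sox9 was in 0.649% and 0.385% and Osr2 in 0.649% and 0.462%. Median depth was 2264 and 1159 UMIs in Sox10-positive cells. At least 2% of UMIs lay in the mesenchymal genes in 101 of the 113 FACS and 150 of the 171 beads cells with Osr2, Wif1, Etv1, Sox9 or Meox1, and in 6 of 46 and 1 of 84 of the cells with Matn4 alone. The data go against the label for the cells with Matn4 alone. These were 46 of 159 and 84 of 255 in the neonatal libraries, 11 of 267 in the uninjured adult and 4 of 311 at 3 DPI. In what follows, selected cells are all cells of the rule. Values without the cells with Matn4 alone, a subset chosen after values were seen, stand beside them for some genes and counts.

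**Figure D2:**
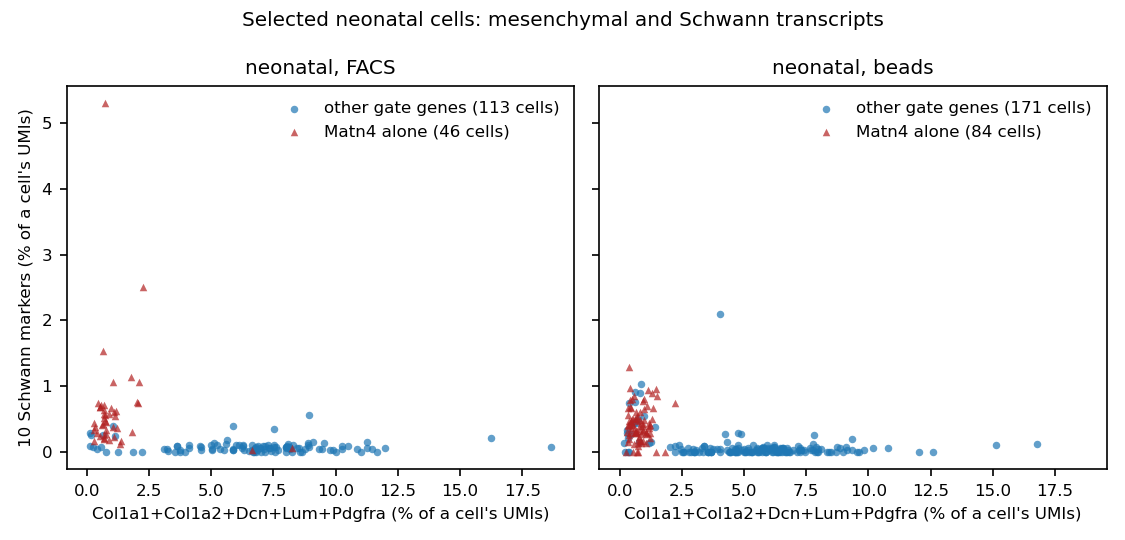
Each point is a selected neonatal cell, placed by the percent of its UMIs in the 5 mesenchymal genes (x axis) and in the 10 Schwann cell markers (y axis). Cells with Matn4 as the only gate gene (triangles) sit at low collagen and raised Schwann cell transcripts, with medians of 0.750% and 0.463% in the FACS library, and most other cells (circles) spread along the x axis near 0 on the y axis.

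Lists of markers gave the same picture in CPM, the UMIs of a gene or list per 1000000 UMIs of the same cells. The Schwann list of 10 genes reached 1444 CPM in the FACS and 1440.1 CPM in the beads cells, 4815 and 4215 in those with Matn4 alone and 754 and 699 in the others, with 1 of its genes at 0 over all selected cells of each library. The endothelial list stood at 166 and 181 CPM. The Schwann list stood at 566 CPM in the cells selected in the uninjured adult and 179 CPM at 3 DPI. The immune list stood at 16.3 and 3.85 CPM in the neonatal cells, with 5 and 8 of its 10 genes at 0, at 9.94 CPM in the uninjured adult and at 226 CPM at 3 DPI. The perineurial list stood at 591 and 896 CPM and the smooth muscle and pericyte list at 1249.6 and 956 CPM. The rule sets Sox10, Pecam1 and Ptprc to 0. The part of these other transcripts in the comparisons below was not tested beyond the values given without the cells with Matn4 alone. Just inside the threshold, the 70 FACS and 153 beads cells with exactly 2 gate UMIs had 3360.2 and 4365 CPM of 12 further endoneurial markers, and just outside it the 163 and 483 cells with 1 gate UMI had 2357 and 2729 CPM.

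The selected cells were first set against the other mesenchymal cells of the same neonatal library, which passed the collagen rule and held no gate UMI (1008 FACS and 2217 beads cells). A gene was compared when both groups together held at least 30 UMIs in each library and was called when its CPM ratio was at least 2, or at most 0.5, in both libraries. A gene can pass this minimum through 1 group alone, so the counts of called genes given for lists are descriptions and support nothing by themselves. Of 8706 genes, 170 were higher (1.95%) and 274 lower (3.15%) in the selected cells. The comparison group was mixed: its Schwann list stood at 4780.5 and 2917 CPM. At least 2% of UMIs lay in the mesenchymal genes in 523 of its 1008 FACS and 621 of its 2217 beads cells. The median share was 2.18% and 0.901%. A gene called against this group was therefore not compared with mesenchymal cells alone, least of all in the beads library. The cells were also set against epineurial mesenchymal cells, a subset of that group with at least 2 UMIs summed over Pcolce2, Dpp4, Dpt, Ly6c1, Comp and Pi16 (182 FACS and 61 beads cells, Schwann list 654 and 476 CPM). There 245 of 3790 genes were higher (6.46%) and 128 lower (3.38%). Both comparisons called 72 genes higher, which is 42.4% of the first list and 29.4% of the second, and 35 lower, 12.8% and 27.3%; they share the selected cells. Without the cells with Matn4 alone, 220 genes were higher and 547 lower than in other mesenchymal cells, and 168 of the 170 and 224 of the 274 were still called. Against epineurial cells 161 were then higher and 113 lower, and 139 of the 245 and 104 of the 128 were still called. Among those named that lay mostly in the cells with Matn4 alone were Cadm1, an adhesion molecule, at 634 and 529 CPM there and 25.5 and 48.7 CPM in the others, and Gatm, an enzyme of creatine synthesis, at 827 and 839 CPM there and 35.4 and 95 CPM in the others.

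Some genes of cartilage-type matrix were among the genes that were higher. Col2a1, the fibrillar collagen of cartilage and first in size of change among the genes outside the rule, stood at 246 CPM (95% interval 209 to 289) in the FACS and 223 CPM (95% interval 184 to 268) in the beads cells, against 14 and 7.30 CPM in other mesenchymal cells and 6.13 and 0 CPM in epineurial cells. Col9a2, a chain of the collagen that coats type II fibrils, stood at 227 and 185 CPM against 13 and 19.2 CPM in other mesenchymal and 4.09 and 0 CPM in epineurial cells. Col11a1, which nucleates such fibrils, stood at 904 and 656 CPM against 174 and 165 CPM in other mesenchymal and 77.7 and 47.6 CPM in epineurial cells. All 3 were over 2-fold above both comparison groups in both preparations. Epyc, a small leucine-rich proteoglycan of growth cartilage, stood at 395 and 479 CPM against 10.002 and 53.4 CPM in other mesenchymal and 18.4 and 47.6 CPM in epineurial cells. Thbs4, a thrombospondin of tendon and muscle matrix, stood at 1834 and 1632 CPM against 127 and 244 CPM in other mesenchymal and 89.9 and 119 CPM in epineurial cells, and had a UMI in 60.4 and 56.1% of the selected cells. These transcripts were higher in the cells with gate genes other than Matn4. Col2a1 stood there at 271 and 283 CPM, against 125 and 0 CPM in those with Matn4 alone. Epyc stood there at 472 and 607 CPM, against 19.2 and 0 CPM. Of the 20 genes of the cartilage and tendon list, which holds Sox5, Sox6 and the tendon factors Scx and Mkx too, 9 could be compared with other mesenchymal cells: 4 were higher and 2 lower, with a median log2 ratio of 1.73 and 0.18 beside -0.01 and -0.13 over all genes compared. Against epineurial cells 4 could be compared, Col2a1, Col9a2, Col11a1 and Thbs4, which passed the minimum mostly through the selected cells, and all 4 were higher. Over all genes, 1.95% were higher and 3.15% lower than in other mesenchymal cells, and 6.46% and 3.38% than in epineurial cells. Lower than in other mesenchymal cells were Tnmd, a membrane protein of tendon, at 4.89 and 3.85 against 31 and 39.6 CPM, and Fmod, a proteoglycan of tendon, with 0 UMIs in both libraries against 38.5 and 17.3 CPM.

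**Figure D3:**
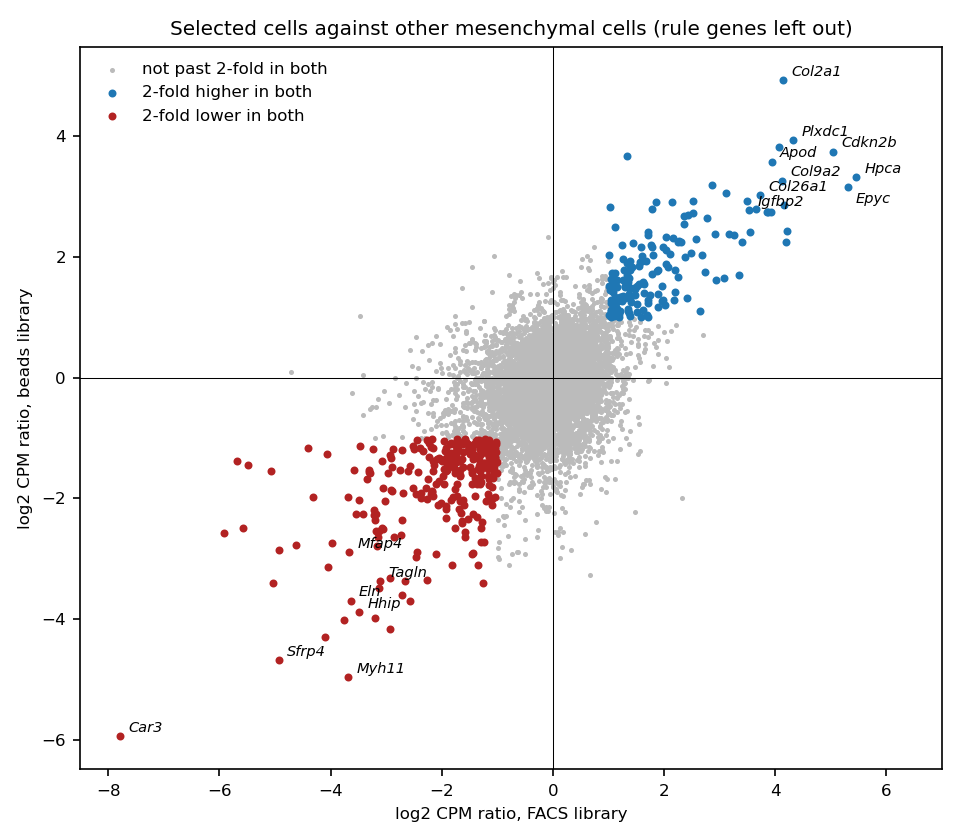
Log2 CPM ratio of the selected cells to the other mesenchymal cells of the FACS library (x axis) and of the beads library (y axis) for each gene compared, without the genes of the rule. Genes 2-fold higher in both are blue and genes 2-fold lower in both are red; Col2a1, at 17.6 and 30.6-fold, lies at the top right and Sfrp4 and Car3 at the bottom left.

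Among collagens, some chains were shared with epineurial cells and some were not. The bulk fibrillar collagen Col1a1, a gene of the rule for both groups, stood at 15101 and 13103 CPM in the selected and 15464 and 12735 CPM in epineurial cells. Col3a1 stood at 28295 and 21509.6 CPM in the selected and 38979 and 27658 CPM in epineurial cells, within 2-fold in both libraries. Col28a1, a beaded collagen known from peripheral nerve, stood at 315 and 259.6 CPM against 4.09 and 11.9 CPM in epineurial cells, where the beads value is a single UMI, but it stood at 336 and 328 CPM in the cells with Matn4 alone and 146 and 149.6 CPM in Sox10-positive cells too. Col26a1 stood at 416 and 359.6 CPM against 12.3 and 23.8 CPM, and Col15a1, a collagen at basement membranes, at 434 and 323 against 149 and 59.5 CPM. Over all genes compared with epineurial cells 6.46% were higher and 3.38% lower. Of 11 fibrillar collagens 9 were compared with them, with 2 higher and 0 lower. Of 16 other collagens 13 were compared, with 5 higher and 1 lower. The lower one was Col12a1, a fibril-associated collagen, at 131 and 94.2 against 331 and 190.2 CPM.

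Genes with other roles also marked the selected cells. Apod, a secreted lipid-binding lipocalin, stood at 2279 and 4349 CPM against 149 and 364 CPM in other mesenchymal and 217 and 452 CPM in epineurial cells. Cdkn2b, an inhibitor of cyclin-dependent kinases, stood at 214 and 129 against 6.50 and 9.60 CPM, and Plxdc1, a plexin domain protein, at 159.9 and 171 against 8.0 and 11.1 CPM. Igfbp2, which binds insulin-like growth factors, stood at 365 and 213 against 31.5 and 31.1 CPM. Each was higher in both preparations and against both comparison groups. Hpca, a neuronal calcium sensor, at 132 and 80.8 against 3.0 and 8.07 CPM, and Cplx2, a complexin of synaptic vesicle release, at 313 and 411 against 25 and 59.2 CPM, are better known from neurons. Angptl7 stood at 184 and 348 against 25.5 and 38 CPM, Fndc5 at 66.9 and 65.4 against 4.0 and 4.61 CPM, and 2 unnamed transcripts, A230065H16Rik and 6030408B16Rik, were among the 15 with the largest change. Smoc2, a matricellular calcium-binding protein and one of 12 further endoneurial markers, stood at 1374 and 1484 CPM against 267 and 254 CPM. Of those 12 markers 9 were compared with other mesenchymal cells, with 4 higher and 1 lower, beside 1.95% and 3.15% of all genes. The lower one was Lpl, lipoprotein lipase, at 140.3 and 71.1 against 619 and 193 CPM.

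Among transcription factors, relatives of the gate genes were higher too. Etv4, an ETS factor of the same subfamily as Etv1, stood at 39.2 and 38.5 CPM against 4.50 and 4.61 CPM in other mesenchymal cells, and Etv5 of that subfamily at 24.5 and 25 against 8.0 and 11.5 CPM. In epineurial cells Etv4 stood at 0 and 0 CPM and Etv5 at 6.13 and 0 CPM. Sox8, of the same SOX group as Sox9, stood at 57.1 and 76.9 against 15.5 and 22.7 CPM and had 0 UMIs in epineurial cells of both libraries. Osr1, the paralog of Osr2, went the other way against epineurial cells, at 53.8 and 23.1 against 168 and 214 CPM, and Meox2, the paralog of Meox1, was within 2-fold in the FACS library, at 162 and 115 against 235 and 428 CPM. Tcf4, an E protein, at 496 and 421 against 126 and 93.7 CPM, and Zeb1, a repressor of epithelial genes, at 166 and 175 against 81.5 and 64.1 CPM, were higher than in other mesenchymal cells, and Prrx1, a factor of limb mesenchyme, was lower than in epineurial cells at 83.2 and 92.3 against 486 and 392 CPM. Of the list of 52 factors, which holds Sox9, Osr2, Etv1 and Meox1 of the rule, 36 were compared with other mesenchymal cells, and 12 were higher and 0 lower, beside 1.95% and 3.15% of all genes. Against epineurial cells 24 were compared, with 9 higher and 4 lower, beside 6.46% and 3.38%. The 4 genes of the rule are among the higher ones in both counts. Their calls were fixed by the rule, so neither count is read as a result about the list.

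The reference promoters of Apod and Epyc, both among the 15 genes with the largest change over other mesenchymal cells, are printed because Sox9 is a gate gene and these windows hold a core motif of SOX proteins. The windows run from 250 bases before to 50 after a RefSeq start (GRCm38.p6, the assembly that mm10 also names), and the motifs AACAAT and AACAAAG were searched on both strands. AACAAT was in 10.7% and AACAAAG in 5.85% of 32851 promoters, and in 4 and 0 of 15 promoters of named genes matched by symbol, which belong to 11 genes. Capitals mark AACAAT or its reverse complement; a match is a description of the letters and not a site. Outside Apod and Epyc only Angptl7 had a match. The windows of Col9a2, Col11a1, Thbs4, Cdkn2b, Igfbp2, Cplx2, Hpca and Fndc5 held neither motif, and no window was matched to Col2a1. The 2 windows were thus chosen for their motif and say nothing about the other genes. The Apod window lies on the minus strand at chr16:31314759-31315058 and the Epyc window on the plus strand at chr10:97643818-97644117.
Apod: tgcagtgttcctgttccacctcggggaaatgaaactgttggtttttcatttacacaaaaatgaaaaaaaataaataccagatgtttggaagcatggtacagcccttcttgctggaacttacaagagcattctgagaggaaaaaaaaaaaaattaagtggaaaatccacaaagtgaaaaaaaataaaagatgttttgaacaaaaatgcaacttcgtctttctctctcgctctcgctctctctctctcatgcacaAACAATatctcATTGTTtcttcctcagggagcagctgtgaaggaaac
Epyc: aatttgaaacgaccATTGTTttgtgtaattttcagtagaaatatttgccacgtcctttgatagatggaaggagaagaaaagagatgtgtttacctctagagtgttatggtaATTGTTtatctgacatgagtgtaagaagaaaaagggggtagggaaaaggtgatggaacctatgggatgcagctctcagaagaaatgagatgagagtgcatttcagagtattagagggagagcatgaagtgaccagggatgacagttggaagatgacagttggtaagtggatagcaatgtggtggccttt

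Among the genes that were lower were genes of the outer connective tissue and of contractile cells. Sfrp4, a secreted Wnt inhibitor, stood at 13.1 and 5.77 CPM against 398 and 148 CPM in other mesenchymal and 1009.5 and 987 CPM in epineurial cells. Mfap4, a microfibril protein of elastic fibers, stood at 58.7 and 30.8 against 1489.8 and 1403 CPM, Ly6a (Sca-1) at 8.16 and 15.4 against 1733 and 1534 CPM, and Clec3b (tetranectin) at 68.5 and 34.6 against 1381 and 1510.1 CPM. Dpt, Pi16, Ly6c1 and the other genes that chose the epineurial cells are no finding there. The smooth muscle genes Myh11, a myosin heavy chain, and Tagln, an actin-binding protein, were lower than in other mesenchymal cells. Myh11 stood at 8.16 and 5.77 against 105 and 179.8 CPM there and 2.04 and 23.8 CPM in epineurial cells. Tagln stood at 24.5 and 26.9 against 212 and 279 CPM there and 4.09 and 47.6 CPM in epineurial cells, so for both genes the direction turned with the comparison in the FACS library. The epineurial values of both genes in that library rest on very few UMIs, and in the beads library the direction did not turn. Eln (elastin) stood at 0 and 5.77 against 61 and 74.5 CPM in other mesenchymal cells, Rspo1, which strengthens Wnt signaling, at 3.26 and 1.92 against 30.006 and 30.3 CPM, and Car3, a carbonic anhydrase of fat and muscle, at 0 and 1.92 against 1088 and 118 CPM. The direction of Car3 turned, to a highest ratio of 1.40, when both groups were limited to cells with at least 2% of UMIs in the mesenchymal genes. The selected cells held 0 Car3 UMIs in the FACS library, set to a floor of 3 counts, and a single UMI in the beads library. That ratio therefore shows no higher level in the selected cells. Of the 12 smooth muscle and pericyte markers 6 were lower and 1 higher than in other mesenchymal cells, beside 3.15% and 1.95% of all genes. The 4 compared with epineurial cells had a median log2 ratio of 2.06 and 0.16. Of these, 2 were higher and 0 lower, beside 6.46% and 3.38% of all genes. Those 2 were Cspg4, a proteoglycan of pericytes, at 189 and 231 against 16.3 and 47.6 CPM, and Vtn (vitronectin) at 264 and 223 against 65.4 and 107 CPM. The matrix protein Postn was lower in both comparisons, at 1098 and 948 CPM against 4161 and 2393 CPM in other mesenchymal and 5877 and 4530.3 CPM in epineurial cells. Of 47 proteoglycans and matrix genes 36 were compared with epineurial cells, and 17 were lower and 5 higher, beside 3.38% and 6.46% of all genes.

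In the hedgehog pathway, Dhh is the ligand that Schwann cells send to the perineurium, Ptch1 is its receptor and a target, Hhip sequesters the ligand and Gas1, Boc and Cdon are co-receptors. Of 11 genes 8 were compared with other mesenchymal cells, with 0 higher and 4 lower, beside 1.95% and 3.15% of all genes. The lower ones were Hhip at 13.1 and 5.77 against 147 and 84.9 CPM, Gas1 at 34.3 and 13.5 against 228 and 81.4 CPM, Boc at 8.16 and 9.61 against 36.5 and 25 CPM and Cdon at 14.7 and 1.92 against 36 and 12.7 CPM. The target Gli1 was present at 94.6 and 75 CPM, with 67.5 and 36.1 CPM in other mesenchymal cells. The co-receptors and the ligand-binding inhibitor were called lower and Gli1 was not called. Against epineurial cells 4 were compared, with 1 higher and 1 lower, beside 6.46% and 3.38% of all genes. The lower one was Gas1, at 478 and 416 CPM in epineurial cells, and the higher one was Dhh, at 53.8 and 71.1 against 8.17 and 11.9 CPM, which stood at 249.9 and 209.8 CPM in the cells with Matn4 alone and 13.8 and 34.1 CPM in the others. In the Wnt pathway, 17 of 39 genes were compared with other mesenchymal cells, with 1 higher and 7 lower, beside 1.95% and 3.15% of all genes; the higher one was the receptor Ror2 at 35.9 and 36.5 against 11.5 and 13.8 CPM, and among the lower ones were the ligand Wnt5a at 29.4 and 9.61 against 73 and 28 CPM and the inhibitor Dkk2 at 34.3 and 7.69 against 109 and 23.8 CPM. This balance turned against epineurial cells, where 8 were compared, with 2 higher and 1 lower, beside 6.46% and 3.38% of all genes. The higher ones were the ligand Wnt6 at 44 and 82.7 against 10.2 and 35.7 CPM and Dkk3 at 223 and 183 against 108 and 83.2 CPM, and the lower one was Sfrp4.

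The neonatal cells were next set against the cells that the same rule selects in the uninjured adult nerve. Of 6129 genes, 661 were higher in both neonatal libraries (10.8%) and 450 lower (7.34%). Without the cells with Matn4 alone these were 492 and 458, of which 425 and 400 were among the first. Both ratios share the 1 adult library, and the median log2 ratio over all genes compared was 0.30 and 0.31. Of the 10 Schwann markers 4 were higher and 2 lower. Ednrb, an endothelin receptor and one of the 15 genes with the largest change, stood at 760.2 and 896 CPM in all selected cells and 16.1 CPM in the adult. It stood at 4075 and 2965 CPM in the neonatal cells with Matn4 alone and 82.5 and 344 CPM in the others.

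Most genes of a list of imprinted and other growth genes were higher in the neonatal cells. Igf2, a fetal growth factor, stood at 4416 CPM (95% interval 4251 to 4586) and 3319 CPM (95% interval 3164 to 3479) in the neonatal cells and at 38.5 CPM (95% interval 26.2 to 54.7) in the uninjured adult. H19, the non-coding RNA from the same locus, stood at 5711 and 6132 CPM against 153 CPM, and Dlk1, a Notch-like membrane protein that holds back fat cell formation, at 4374 and 3630.1 against 23.6 CPM. Mest stood at 1832 and 1234 against 155 CPM and Peg3 at 1018 and 769 against 95.6 CPM. Of the 13 genes of the list 12 were compared, and 11 were higher and 0 lower, beside 10.8% and 7.34% of all genes. Their median log2 ratio was 3.11 and 2.85. Igf1, which is not imprinted, and Gpc3 are growth genes of the same list. Gpc3, a glypican that binds growth factors, was the one not called, at 3785 and 3053 against 5867 CPM. Within the neonatal nerve 0 of 12 genes were called in either direction against epineurial cells, in which Igf2 stood at 6915 and 6052 CPM. Over all genes 6.46% were higher and 3.38% lower there. Against the cells selected at 3 DPI, where Igf2 stood at 39.6 CPM and H19 at 1259 CPM, 9 of 12 were higher and 0 lower. Over all genes 5.24% were higher and 8.79% lower in that comparison.

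Some matrix genes of growing tissue were higher in the neonatal cells than in those of the uninjured adult. Fbn2, the fibrillin of developing microfibrils, stood at 692 and 694 CPM against 17.4 CPM in the uninjured adult, and at 542 CPM at 3 DPI. Col12a1 stood at 131 and 94.2 against 3.73 CPM in the uninjured adult but at 105 CPM at 3 DPI, and Col14a1, another fibril-associated collagen, at 674 and 711 against 52.2 CPM in the uninjured adult and 325 CPM at 3 DPI. Col11a1 at 904 and 656 against 107 CPM and Col2a1 at 246 and 223 against 79.5 CPM were higher too, whereas Epyc, at 308 CPM in the adult, stayed within 2-fold. Igfbp2 was at 2.48 CPM in the uninjured adult and 0.471 CPM at 3 DPI against 365 and 213 CPM, so both adult libraries were low. Of 9 fibrillar collagens compared, 4 were higher and 0 lower than in the uninjured adult, beside 10.8% and 7.34% of all genes. Of the rule's own genes, Sox9 stood at 378 and 349.9 CPM against 533 CPM and Etv1 at 116 and 173 against 170.2 CPM, both within 2-fold. Osr2 stood at 147 and 298 CPM in all selected cells and 177 and 378 CPM without those with Matn4 alone, against 828 CPM.

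Several genes that were abundant in the cells selected from adult nerve were low or missing in the neonate. Apod stood at 2279 and 4349 CPM in the neonatal cells and at 65414 CPM in the uninjured adult, where it had a UMI in 99.3% of selected cells, against 56.6 and 49%. These shares include the cells with Matn4 alone, 46 of 159 and 84 of 255 in the neonate and 11 of 267 in the adult. Median depth differed too, at 3440 and 1721 against 2856 UMIs. The size of the difference in share is therefore not read. Angptl7 stood at 184 and 348 against 3840.3 CPM and Crispld2, a secreted protein, at 65.3 and 61.5 against 2457 CPM. All 3 genes were over 2-fold above the other mesenchymal cells of the neonatal nerve while far below the adult. Gsn (gelsolin), an actin-severing protein, stood at 259 and 263 against 9416 CPM, and Enpp2 (autotaxin), which makes lysophosphatidic acid, at 50.6 and 40.4 against 1284 CPM. Myoc (myocilin) had 0 UMIs in the selected cells of both neonatal libraries and 704 CPM in the adult, and Cpxm2 had 0 UMIs and 746 CPM. Dcn (decorin), a proteoglycan of the rule, stood at 9600.3 and 9321 against 51469.7 CPM and Lum (lumican) at 2145 and 1975 against 10703 CPM. Of the 12 further endoneurial markers 8 were lower and 1 higher, beside 7.34% and 10.8% of all genes. The sum of the 12 was 5468 and 7689 CPM against 75279 CPM. The marker that was higher was Fxyd6, a regulator of the sodium pump, at 228 and 154 against 22.4 CPM.

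**Figure D4:**
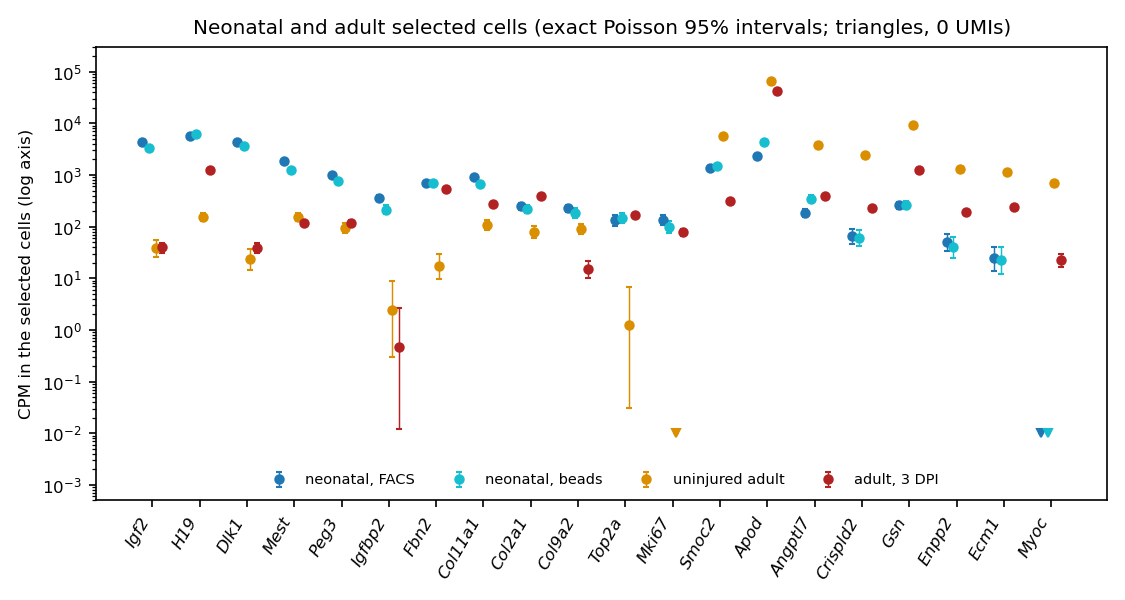
CPM (log axis) of chosen genes in the selected cells of the 4 libraries, with exact Poisson 95% intervals as bars and triangles for 0 UMIs. Igf2, H19, Dlk1, Mest, Peg3 and Igfbp2 are higher in both neonatal libraries than in either adult library, and Apod, Crispld2, Gsn, Enpp2, Ecm1 and Myoc are lower.

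Immediate early genes, which can be induced during tissue dissociation, were lower in the neonatal cells. Against the uninjured adult 15 of 15 passed 2-fold, beside 7.34% of all genes. Their median log2 ratio was -3.99 and -2.45 in the FACS and beads libraries. Fos stood at 591 and 2373 against 10254 CPM, and Egr1 at 651 and 1363 against 5782 CPM. Within the neonatal nerve 9 of 10 were higher than in epineurial cells, beside 6.46% of all genes, and Fos stood at 69.5 and 678 CPM in epineurial cells. Against other mesenchymal cells 1 of 13 was higher, beside 1.95% of all genes. The FACS library differed from the adult library in preparation, while the beads library was cleared with beads like it. The part of handling in these values was not tested.

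Transcripts of dividing cells were detected. A UMI of Mki67 or Top2a, which are transcribed in cycling cells, was found in 24 of 159 FACS cells (15.1%, 9.92 to 21.6%) and 35 of 255 beads cells (13.7%, 9.75 to 18.6%). In the uninjured adult it was found in 1 of 267 (0.375%, 0.00948 to 2.07%), and at 3 DPI in 60 of 311 (19.3%). The share depends on depth, so 500 UMIs were drawn at random from each cell that had as many, which left out 2 FACS, 6 beads, 0 uninjured and 3 cells at 3 DPI. It was then 7.64% (4.01 to 13%) and 8.03% (4.98 to 12.1%) in the neonatal libraries, 0 of 267 in the uninjured adult (exact upper bound 1.37%) and 4.55% (2.51 to 7.51%) at 3 DPI, so the order of the neonatal cells and those at 3 DPI turned with depth and their intervals overlapped. The floor of 3 counts allows a share of up to 1.12% of uninjured adult cells with such a UMI at this depth; it and the bounds limit the cells in which a UMI is found and not the cells that transcribe these genes. Without the cells with Matn4 alone the thinned share was 4.46% and 4.73%, while in those with Matn4 alone it was 13.3% and 12.5%. Of 20 genes of the dividing list 7 could be compared with the uninjured adult, all through the neonatal cells. All 7 were higher, beside 10.8% of all genes. With 3 DPI 20 could be compared and none was called in either direction, beside 5.24% of all genes higher and 8.79% lower.

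Against the cells selected at 3 DPI, 464 of 8848 genes were higher in both neonatal libraries (5.24%) and 778 lower (8.79%). Without the cells with Matn4 alone these were 358 and 803, of which 282 and 677 were among the first. Among the lower ones, Spp1 (osteopontin) stood at 17.9 and 26.9 CPM against 7766 CPM, and Timp1, an inhibitor of matrix metalloproteinases, at 27.7 and 36.5 against 1783 CPM. Saa3, an acute phase protein, had 0 UMIs in both neonatal libraries and 320.3 CPM at 3 DPI, and C3, of complement, had 0 UMIs and 306 CPM. The immune genes Tyrobp, Fcer1g and Lyz2 were called lower as well, in the selection that held 226 CPM of the immune list at 3 DPI, and the part of immune transcripts in these values was not tested. The 15 genes with the largest change against 3 DPI included the myelin genes Mbp and Mal: Mbp stood at 763 and 529 CPM in all selected cells and 356 and 207 CPM without the cells with Matn4 alone, against 1.41 CPM. Col9a2 was at 227 and 185 against 15.1 CPM, whereas Col2a1, at 384 CPM, was within 2-fold of the neonatal level.

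One question of the study was which ligands the mesenchymal cells of nerve make. A ligand was counted here when at least 2% of the cells held a UMI. Of 142 ligands taken from the study's list, 49 were detected at that share in the selected cells of both neonatal libraries, 69 in the FACS and 52 in the beads cells, and 25 were in at least 10% in both. At 500 UMIs per cell 25 were detected in both libraries, and without the cells with Matn4 alone, as deposited, 57 were. A UMI in a droplet can come from free RNA, so shares in the other 284 selected cells and in endothelial and Sox10-positive cells of the same libraries stand beside those of the selected cells. The endothelial cells had a median of 1828 and 1566 UMIs, fewer than the selected cells, and these cells can also express a ligand. They were also taken with fewer than 3 UMIs summed over the mesenchymal genes, a limit not set for Sox10-positive cells. Col1a2 had a UMI in 43.8 and 32.6% of endothelial and 98.3 and 92.8% of Sox10-positive cells. Endothelial shares can therefore understate free RNA from mesenchymal cells. Igf2 was in 72.3 and 60.8% of the selected cells and 91.2 and 85.4% of those with gate genes other than Matn4, beside 72.6 and 67.7% of endothelial and 21.6 and 10.5% of Sox10-positive cells. Mdk (midkine) was in 67.9 and 49.8% of the selected cells and 80.5 and 67.8% of those with gate genes other than Matn4, beside 5.48 and 8.63% of endothelial and 32.3 and 21.5% of Sox10-positive cells. Igf1 was in 57.9 and 48.6% of the selected cells and 79.6 and 72.5% of those with gate genes other than Matn4, beside 15.1 and 16.9% of endothelial and 6.71 and 2.46% of Sox10-positive cells. Ptn (pleiotrophin) was in 46.5 and 31.4% of the selected cells and 34.5 and 24.6% of those with gate genes other than Matn4, beside 20.5 and 14.7% of endothelial and 49.6 and 45.3% of Sox10-positive cells. Ccl11, a chemokine, was in 54.7 and 42.7% of the selected cells and 75.2 and 63.2% of those with gate genes other than Matn4, beside 1.37 and 1.28% of endothelial and 1.52 and 1.23% of Sox10-positive cells. Cxcl12, another chemokine, was in 49.1 and 38% of the selected cells and 66.4 and 56.1% of those with gate genes other than Matn4, beside 30.1 and 31.6% of endothelial and 3.46 and 2.23% of Sox10-positive cells. Over all selected cells, the share of Igf2 was not above that in endothelial cells in either library and the share of Ptn not above that in Sox10-positive cells, so neither share sets all selected cells apart. In the 284 cells with gate genes other than Matn4 the share of Igf2 was above that in endothelial cells in both libraries. These 284 cells were deeper, with a median of 4201 and 2168 UMIs. The share of Ptn stayed below that in Sox10-positive cells there. Dhh, which counted as detected, was in 15.1 and 9.80% of the selected cells, 39.1 and 19% of those with Matn4 alone and 5.31 and 5.26% of the others.

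Of the ligands, 63 were compared with other mesenchymal cells, with 6 higher and 11 lower, beside 1.95% and 3.15% of all genes. Of the 6 higher ones 5 were chemokines: Ccl11 stood at 644 and 688 against 94.5 and 109 CPM, Ccl7 at 144 and 212 against 25 and 31.9 CPM, Ccl2 at 219 and 152 against 12 and 31.9 CPM, Cxcl1 at 111 and 433 against 9.50 and 81.4 CPM and Cxcl12 at 512 and 459.5 against 114 and 93 CPM, and the other one was Efnb2, an ephrin, at 83.2 and 63.5 against 40.5 and 20.4 CPM. Tgfb2 and Tgfb3, growth factors of the TGF-beta family, were among the lower ones, Tgfb2 at 6.53 and 9.61 against 59 and 46.1 CPM and Tgfb3 at 16.3 and 17.3 against 124 and 62.6 CPM. Against epineurial cells 31 were compared, with 11 higher and 5 lower, beside 6.46% and 3.38% of all genes, and Ptn was among the lower ones at 1124 and 678 CPM there. Against the uninjured adult 50 were compared, with 15 higher and 14 lower, beside 10.8% and 7.34% of all genes. Il33, an alarmin, at 79.9 and 69.2 against 859 CPM and Cxcl1 at 111 and 433 against 1869 CPM were lower. Mdk at 1072 and 625 against 77 CPM and Ptn at 305 and 259.6 against 36 CPM were higher. Ptn stood at 807 and 675 CPM in the cells with Matn4 alone and 202 and 149 CPM in the others. Dhh was also among the higher ones.

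**Figure D5:**
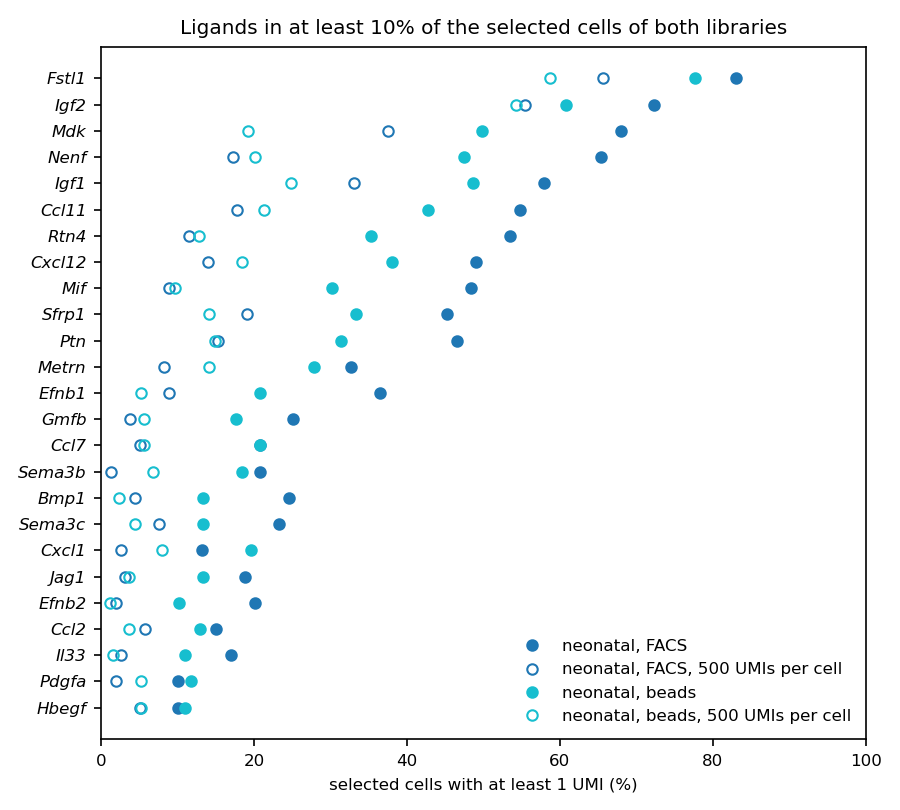
Share of selected neonatal cells with at least 1 UMI (x axis, %) for the 25 ligands found in at least 10% of cells of both libraries, as deposited (filled) and at 500 UMIs per cell (open). Fstl1 leads at 83 and 77.6%, and thinning moves every one of these ligands to a lower share.

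Among receptors, Pdgfra, one of the rule's genes, stood at 204 and 225 CPM in the selected cells and 204 and 285 CPM in epineurial cells. Egfr stood at 142 and 94.2 against 64 and 33.4 CPM in other mesenchymal cells and Gfra1, a co-receptor for GDNF, at 48.9 and 53.8 against 9.50 and 8.45 CPM; these were the 2 higher of 33 receptors compared, and 1 was lower. Over all genes 1.95% were higher and 3.15% lower than in other mesenchymal cells. Against epineurial cells 16 were compared, with 3 higher and 3 lower, beside 6.46% and 3.38% of all genes. Gfra1 was lower than in the uninjured adult, at 358 CPM. Fgfr1 at 284 and 254 CPM and Nrp1 at 383 and 406 CPM were found in both libraries.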

How the data were processed

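Single-cell Drop-seq libraries were made from dissociated mouse sciatic nerve, 1 library per group. The authors deposited raw UMI counts per gene and barcode, made after the Drop-seq Alignment Cookbook, and the submitters' processing notes name the mm10 build. Libraries at other times were not analysed here. No value was normalized by the authors in these tables.

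Barcodes with at least 200 genes and at most 10% mitochondrial UMIs were kept. Counts were summed over the cells of a class and given per 1000000 UMIs of that class (CPM), with exact Poisson 95% intervals, and shares with exact binomial (Clopper-Pearson) intervals, in Python 3.11.15 with numpy 2.4.6 and scipy 1.17.1. Cells are not replicates and each group is 1 library, so no p-value was computed. A gene with at least 30 UMIs over both classes in each library was called at 2-fold in both neonatal libraries, with a class at 0 set to a floor of 3 counts. Named genes are the 15 in each direction with the largest change, ranked by the smaller change of the 2 libraries and leaving out the rule's, mitochondrial, ribosomal protein and hemoglobin genes, and members of the lists by role. The cells and the 24 gene lists were chosen with earlier results of these data known. No doublet caller was run. The rule drops cells with a UMI of Sox10, Pecam1 or Ptprc, and an alternative drops the 5% of barcodes with most UMIs. Thinning drew 500 UMIs per cell without replacement. The calling was tested on simulated data. Certain genes are not reported here and were left out of the lists.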

Additional observations from a re-analysis of the deposited data

Results flagged for a closer look

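Genes were singled out when the selected cells lay on opposite sides of the epineurial cells, by 2-fold, in both neonatal libraries and in the uninjured adult nerve, and 7 genes did so. The difference between neonate and adult was not tested, since each is 1 library per preparation.

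Thbs1 (thrombospondin 1), a matricellular protein, stood at 73.4 and 73.1 CPM in the selected neonatal cells against 300.4 and 238 CPM in epineurial cells, which is 0.244 and 0.307-fold. In the uninjured adult it stood at 337 against 103 CPM, or 3.25-fold, so the order of the classes turned. Dkk3, a secreted protein of the Dickkopf family, stood at 223 and 183 against 108 and 83.2 CPM in the neonate and at 36 against 102 CPM in the adult, a ratio of 0.352.

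The other 5 were higher in the neonatal and lower in the adult selected cells. Gsta4, a glutathione transferase, was at 3.51 and 2.96-fold of the epineurial level in the neonatal libraries and 0.282-fold in the uninjured adult. Limch1 was at 3.09 and 2.43-fold of the epineurial level in the neonatal libraries and 0.284-fold in the uninjured adult. Sart3 was at 3.28 and 5.34-fold of the epineurial level in the neonatal libraries and 0.394-fold in the uninjured adult. Slc16a1, a lactate transporter, was at 2.16 and 3.72-fold of the epineurial level in the neonatal libraries and 0.186-fold in the uninjured adult. In the epineurial cells of the beads library Sart3 stood at 11.9 CPM, a single UMI, Gsta4 and Slc16a1 at 35.7 CPM and Limch1 at 71.3 CPM. The beads folds of these genes therefore rest on few counts. Pdgfa, a ligand of the receptor Pdgfra, stood at 47.3 and 78.8 CPM in the selected neonatal cells, with 18.4 CPM and 0 UMIs in epineurial cells, and its ratio in the uninjured adult was 0.304. The beads ratio of Pdgfa, 2.21, rests on the floor of 3 counts, which in these epineurial cells is 35.7 CPM. In the cells with Matn4 alone Pdgfa stood at 96.1 and 246 CPM and in the others at 37.3 and 34.1 CPM. The beads value of the others lies below that floor, so without the cells with Matn4 alone Pdgfa would not be singled out. For the other genes singled out here, the part of the cells with Matn4 alone was not tested.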

How the results depend on the processing

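The share of selected cells in the FACS and beads libraries was 9.13 and 5.93% with at least 500 genes per barcode, 3.86 and 1.78% with a gate sum of at least 3, 5.29 and 3.57% without Sox9 in the gate, 3.84% in the beads library without the 5% of barcodes with most UMIs, and 4.90 and 2.98% without the cells with Matn4 alone, an alternative chosen after seeing the data. Against other mesenchymal cells, 263 genes were higher at a minimum of 10 UMIs and 85 at 100 UMIs, and 125 were lower at 100 UMIs, 517 with a gate sum of at least 3, 547 without the cells with Matn4 alone and 128 with epineurial cells as the comparison. Against the uninjured adult, 1295 were higher and 753 lower at 10 UMIs, 252 and 232 at 100 UMIs, 413 higher with a gate sum of at least 3, 434 higher with at least 2% of UMIs in the mesenchymal genes on both sides (chosen after seeing the data), and 778 were lower with 3 DPI as the comparison. At 500 UMIs per cell 25 ligands were detected, and 7.64 and 8.03% of cells had Mki67 or Top2a.

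The direction of a named gene turned for 2 genes with epineurial cells as the comparison, Myh11 (ratio 3.99 in the FACS library) and Tagln (5.99). Both ratios rest on very few UMIs in the epineurial cells, and neither gene turned in the beads library. The direction turned for 2 with at least 2% of UMIs in the mesenchymal genes, Car3 (1.40) and Lmod1 (2.11). The Car3 ratio rests on the floor of 3 counts or a single UMI in the selected cells. With 3 DPI in place of the uninjured adult it turned for 5, Top2a (0.799), Cxadr (0.859), Prc1 (0.841), Col12a1 (0.901) and Cenpa (0.951). The cause was not tested. Under the other alternatives tried for them, no named gene of these 2 comparisons turned. Of the 30 genes named against other mesenchymal cells, 3 kept their direction but fell under 2-fold in a library with a gate sum of at least 3, 4 with epineurial cells, 3 with the 2% minimum and 1 without the 5% of barcodes with most UMIs, and of the 30 named against the uninjured adult 3 did so with 3 DPI. No paired analysis was possible because the labels give no shared replicate numbers. With 1 library per group, the spread between animals is unknown, and in the beads library a single UMI in the epineurial cells is 11.9 CPM, which limits ratios of low genes.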
